A study of Mus musculus with 7 samples.

Results

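The TRIM family was examined in naive mouse CD8 T cells with and without the tyrosine kinase Lck. Members were all genes on the array whose name is Trim followed by a digit: 67 gene names of 34797, read by 101 probes of 55681. Of the 67, 10 belong to the chromosome 7 cluster (Trim5 and the relatives of Trim12, Trim30 and Trim34), and 57 are other members. Both groups of mice were OT-1het Rag-/-, so their T cells could rearrange no receptor and relied on the OT-1 transgene, which recognises an ovalbumin peptide. Cells of both groups came from lymph node, were not activated, and were sorted as CD8b+ CD44low, the surface phenotype of naive CD8 T cells, before total RNA was labelled with Cy3 for a single-colour array. The WT group held 3 samples. The Lck-off group held 4 samples from Lck-/- mice whose Lck came from a knocked-in copy that needs doxycycline, and doxycycline had been left out of their diet for 7 days. Lck-/- mice still on doxycycline are not analysed here, and the labels name no diet for the WT mice. Effects of genotype, diet and loss of Lck therefore cannot be told apart. The labels call the samples of a group biological replicates, without the number of animals behind each or the promoter of the inducible copy, and p-values measure only the spread between these 7 samples.

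Most TRIM proteins, though not all, have a RING finger, which hands ubiquitin to target proteins, followed by B-box and coiled-coil segments. Many end in a B30.2 (PRY-SPRY) domain that recognises the target. The family is best known in innate immunity. Primate TRIM5 binds retroviral capsids, TRIM25 ubiquitinates the RNA sensor RIG-I, TRIM21 is an antibody receptor in the cytosol, and several members are themselves induced by interferon. Other members act on chromatin (the TIF1 group), in muscle, in neurons or in red cell precursors. In the mouse, the relatives of Trim5 have expanded into a cluster of Trim12, Trim30 and Trim34 copies on chromosome 7.

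Levels below are log2 intensities minus the 75th percentile of the same array, so that 0 is the intensity of the 75th percentile probe, and each gene is read by its brightest probe. Levels compare one probe between arrays, not one gene with another. The 75th percentile of intensity ran from 208 to 243 over the 7 arrays, 42.5% to 48.6% of probes were well above background, and no spot was saturated. Genes passed at a Benjamini-Hochberg adjusted p under 0.05 in limma's moderated test over 18230 genes. Lck itself, read by 1 probe that starts at base 2085 of its transcript, had levels of 8.99, 9.02 and 8.98 in WT against 8.52, 8.83, 8.60 and 8.55 in Lck-off, a log2 difference of -0.37 ± 0.09 SE (limma adjusted p = 0.0493). This probe does not check the labels, since the altered part of Lck and the extent of the knocked-in copy are not stated. None of 10 T cell identity genes passed in limma (3 at an unadjusted p under 0.05: 2 higher, 1 lower). In bulk samples, fewer cells of a type and less RNA per cell cannot be told apart.

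Across the family, 43 of 67 members had a probe well above background on at least 3 arrays. Of these, 10 rose in Lck-off and 0 fell, where 8.38% of all genes tested passed, 3.80% by rising and 4.57% by falling. The chromosome 7 cluster held 7 of the 10 rises among its 9 measured members, and its median log2 difference was 0.86. The other 34 measured members had 3 rises (Trim14, Trim56 and Trim59) and a median of 0.09, against a median of -0.01 over all genes tested. At an unadjusted limma p under 0.05, 7 cluster members were higher and 0 lower, and of the other members 8 were higher and 4 lower (Trim2, Trim13, Trim33 and Trim36), against 9.95% higher and 11.5% lower over all genes. The groups did not overlap in 18 members, 7 of them in the cluster (all higher in Lck-off) and 11 outside it (8 higher, 3 lower), where 21.8% of all genes showed no overlap.

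**Figure D1:**
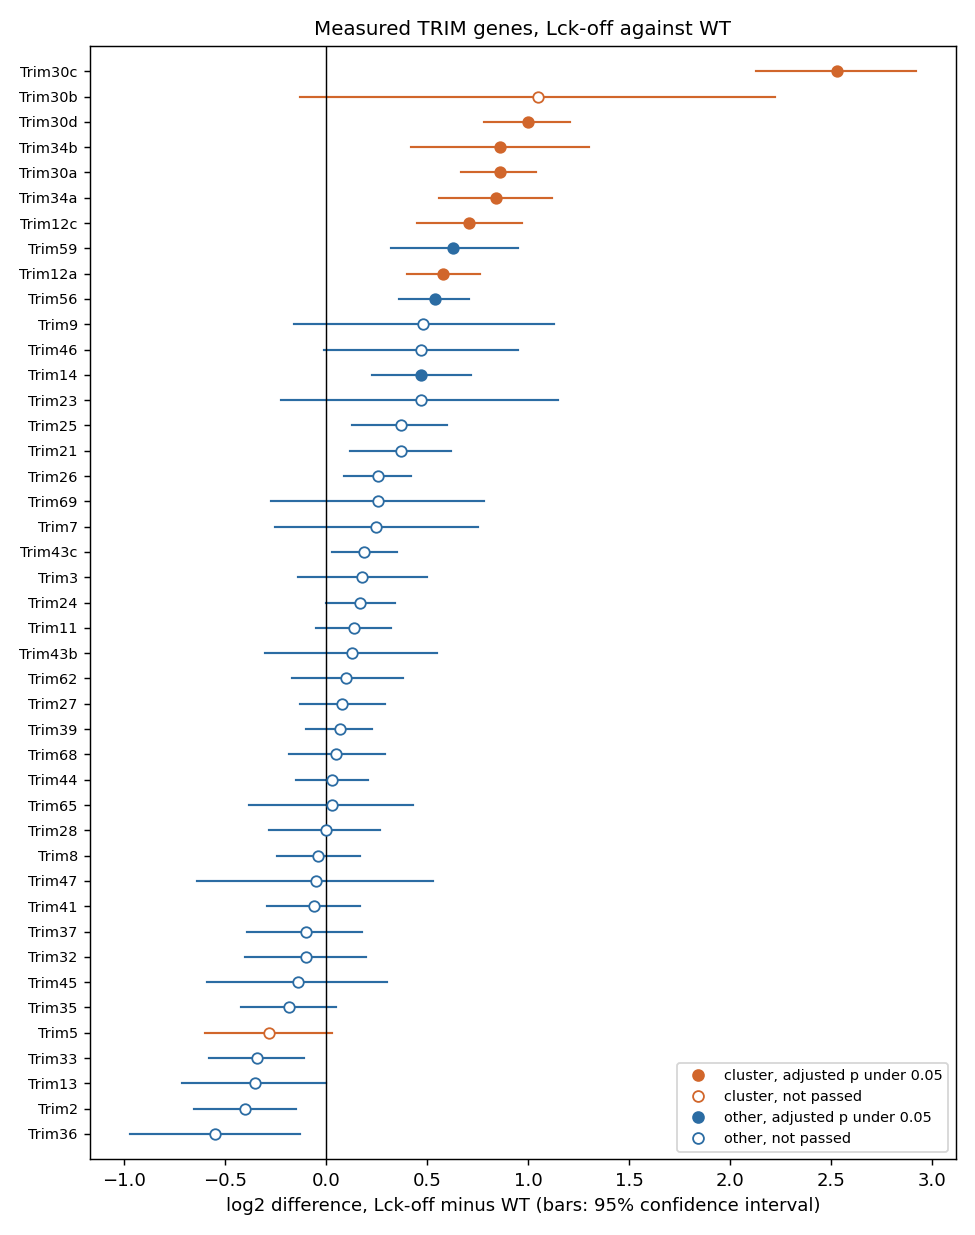
Log2 difference (Lck-off minus WT, x axis) of each of the 43 measured TRIM genes, with 95% confidence intervals from the limma fit; filled points passed an adjusted p under 0.05, and orange marks the chromosome 7 cluster. All 10 filled points lie to the right of 0, from 0.47 for Trim14 to 2.53 for Trim30c, and the interval of Trim30b is the widest among the cluster genes.

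Members of the Trim30 branch showed the widest range. Trim30a restrains Toll-like receptor signalling to NF-kB by promoting the loss of the adaptors TAB2 and TAB3. Its probe (chr7:111557578-111557637, minus strand, mm9) gave levels of 3.29, 3.44 and 3.37 in WT against 4.16, 4.15, 4.33 and 4.25 in Lck-off. Every Lck-off array was above every WT array, and the spread within a group (SD 0.07 in WT, 0.09 in Lck-off) was small beside the log2 difference of 0.86 ± 0.08 SE (1.81-fold, limma adjusted p = 0.00117). Trim30d (chr7:111620805-111620864, minus strand, mm9), a close relative of Trim30a, had levels of 2.71, 2.53 and 2.70 in WT against 3.50, 3.61, 3.68 and 3.77 in Lck-off. Its groups did not overlap either, and it rose 2.00-fold (log2 difference 1.00 ± 0.09 SE, limma adjusted p = 0.00116).

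Trim30c had the largest difference of the family. At its probe (chr7:111530579-111530638, minus strand, mm9) the WT levels were -1.91, -1.18 and -1.55 and the Lck-off levels 0.94, 0.91, 0.91 and 1.14. The lowest Lck-off array thus stood far above the highest WT array, WT replicate 2, and the difference was 2.53 ± 0.17 SE on the log2 scale, or 5.76-fold (limma adjusted p = 4.11e-04). Trim30c was the only called member past 2-fold, a size that 1.25% of all genes reached with a called rise; Trim30d lay just under it. Trim30b was well above background on only 1 WT array and 3 Lck-off arrays. Its levels were -4.58, -2.65 and -4.84 in WT against -3.30, -2.98, -2.69 and -2.92 in Lck-off, where WT replicate 2 was the highest array of all 7. Trim30b did not pass the test (1.05 ± 0.50 SE, limma adjusted p = 0.287), and its difference without WT replicate 2 (1.73, limma adjusted p = 0.00482) was taken against the 2 dimmest arrays, so it is not counted as a rise. The pseudogene Trim30e-ps1 was not well above background on any array.

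Both Trim34 copies were higher in Lck-off. Trim34a, whose human counterpart TRIM34 is an interferon-induced neighbour of TRIM5, had levels of 2.76, 3.06 and 2.69 in WT against 3.65, 3.54, 3.87 and 3.66 in Lck-off (chr7:111410513-111410572, plus strand, mm9). The groups were apart by more than their spread, and the log2 difference was 0.84 ± 0.12 SE (1.79-fold, limma adjusted p = 0.00587). Trim34b was dimmer at its own probe (chr7:111483842-111483901, plus strand, mm9), with levels of -0.56, 0.02 and -0.54 in WT against 0.30, 0.28, 0.73 and 0.69 in Lck-off. The gap between WT replicate 2 and the lowest Lck-off arrays was small, although the groups did not overlap. Trim34b rose by 0.86 ± 0.19 SE (limma adjusted p = 0.0344), and it missed the threshold without WT replicate 1 (0.76, limma adjusted p = 0.108), WT replicate 3 (0.77, 0.120), Lck-off replicate 3 (0.78, 0.0894) or Lck-off replicate 4 (0.80, 0.0938).

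The Trim12 copies and Trim5 are the rodent relatives of the primate restriction factor TRIM5. Trim12a was read at chr7:111448499-111448558 (minus strand, mm9) with levels of 5.59, 5.79 and 5.63 in WT against 6.19, 6.28, 6.27 and 6.26 in Lck-off. The Lck-off arrays lay close together (SD 0.04) and all above the WT arrays, and the rise was 0.58 ± 0.07 SE (1.49-fold, limma adjusted p = 0.00401; 0.0555 with arrays scaled to their median). Trim12c gave 1.87, 2.05 and 1.76 in WT against 2.48, 2.46, 2.71 and 2.75 in Lck-off at its brightest probe (chr7:111496596-111496655, minus strand, mm9). This was again a rise without overlap, of 0.71 ± 0.11 SE (1.63-fold, limma adjusted p = 0.00906), though it depended on the probe, as described with the probe positions. Trim5 was the exception among the cluster genes measured on all arrays. Its levels were -0.58, -0.99 and -0.63 in WT against -1.01, -1.23, -0.84 and -0.99 in Lck-off, so the groups overlapped, and its log2 difference of -0.28 ± 0.13 SE, with a 95% confidence interval from -0.60 to 0.03, did not pass (limma adjusted p = 0.281).

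**Figure D2:**
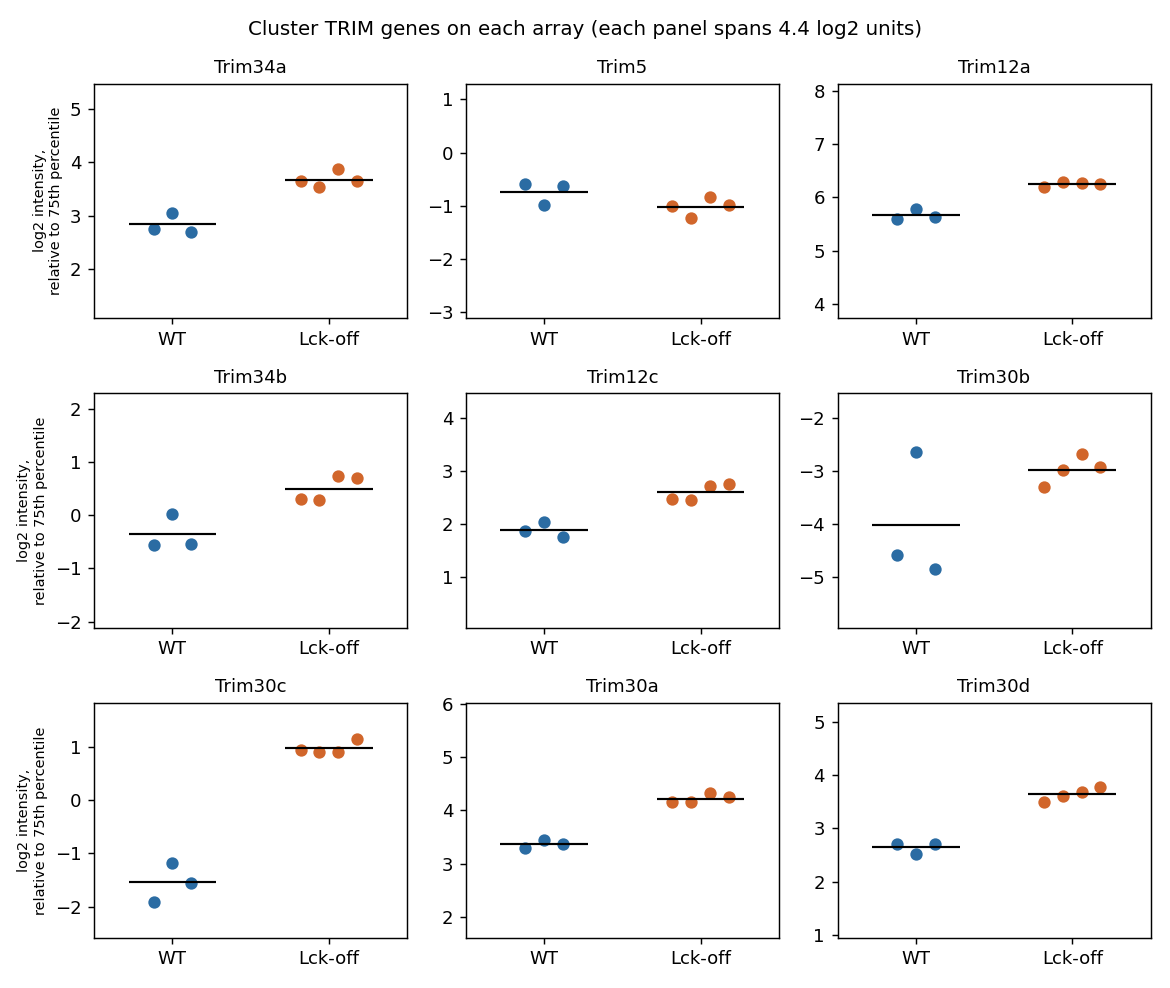
Level (log2 intensity relative to the 75th percentile of the array, y axis) of the 9 measured cluster genes on each array, ordered by probe position; points are arrays, lines are group means, and each panel has its own axis of equal length. The 4 Lck-off points stand above the 3 WT points in 7 panels, while those of Trim5 and Trim30b overlap.

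For each of the 7 called cluster genes, the exact two-sided permutation p was 0.0286, which is the smallest that the 35 splits of these arrays can give. The median level of the 9 measured cluster genes was 1.87, 2.05 and 1.76 in WT against 2.48, 2.46, 2.71 and 2.75 in Lck-off; Trim12c was the median gene on every array, so these are its levels. For the 34 other measured members it was 0.93, 0.88 and 0.80 in WT against 0.88, 0.57, 0.78 and 0.66 in Lck-off, with overlap. The 7 arrays lay on 1 slide in 2 rows, each with both groups, though WT replicate 3 was the only WT array in row 1. Within the rows the 7 called cluster genes differed by 0.64 to 2.46 (row 1) and 0.54 to 2.59 (row 2). As their groups did not overlap, a difference above 0 in each row was given in advance. The cluster median was 0.95 in row 1 and 0.74 in row 2, against 0.08 and 0.10 for the other members. WT replicate 2 was the highest WT array for 6 of the 7 called cluster genes. Xist, a gene expressed from the inactive X chromosome and looked at after the values were seen, was low on WT replicate 1 (-5.70) and Lck-off replicate 1 (-5.52) and between 0.40 and 0.89 on the other arrays, so 1 array of each group stood apart in this way.

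Markers of other cells in the sort were measured beside these rises. The summed linear level of 23 macrophage, monocyte and neutrophil markers was 42.9 to 60.2 in WT against 55.8 to 67.1 in Lck-off, with 12 measured, all 12 with a log2 difference above 0 (0.14 to 3.71) and 2 of them called higher, and Fcgr3 and Cd163 not well above background on any array. For 17 dendritic cell markers the sum was 488 to 538 in WT against 596 to 649 in Lck-off, with 11 measured and 1 higher, Bst2, which interferon also induces. The median log2 difference of the 11 was 0.86. This was the value of Ciita, which was well above background on 1 WT array and 4 Lck-off arrays and so was also kept through Lck-off. The class II genes H2-Ab1 (1.40), H2-Eb1 (1.26), Cd74 (1.12) and H2-Aa (1.07) did not pass, and Clec9a, Cd209a and Clec10a exceeded background on no array. Much of this sum came from the bright probes of Siglech (mean level 8.00 in WT, difference 0.10) and Ccr7 (7.72, 0.07). Without Bst2 and Ccr7 the sum of the other 15 was 265 to 284 in WT against 273 to 336 in Lck-off, with overlap. Siglech made up most of this sum too, so its overlap says little about the dimmer dendritic cell markers. For 11 B cell markers the sum was 12.9 to 15 in WT against 12.6 to 15.5 in Lck-off, with Ms4a1, Blk, Pax5 and Ebf1 not well above background on any array. The 11 NK cell markers summed to 290 to 309 in WT against 169 to 193 in Lck-off. The 5 measured, among which Gzmb was well above background on Lck-off arrays alone, had a median log2 difference of 0.20. Of these, Nkg7 (mean level 8.12 in WT, nearly all of the sum) fell by 0.78 (limma adjusted p = 0.00158) and Eomes by 0.86 (0.00406), both of which CD8 T cells also express, and Klrk1 and Itga2 were above background on no array. Red cell and platelet markers summed to 0.526 to 2.33 in WT against 1.29 to 3.87 in Lck-off, CD4 and regulatory T cell markers to 16.9 to 17.7 against 17.8 to 21.2, and stroma and muscle markers to 2.14 to 2.35 against 2.11 to 2.92. Ikzf2, of the regulatory T cell markers, fell by 1.70 (limma adjusted p = 0.0318), and the stroma marker Pdgfrb passed as lower (0.0476), with no Lck-off array above background. The part of these cells in the TRIM differences was not tested.

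The promoters of the cluster genes are shown because several members share sequence there. RefSeq promoters (GRCm38.p6, 250 bases before to 50 after the start) were searched on both strands for 2 copies of GAAA with any 2 bases between them, the core of the interferon-stimulated response element (ISRE) that the interferon-activated factor ISGF3 binds, and for TTCNNNGAA, which reads alike on both strands, the core of the gamma-activated site (GAS) of interferon gamma signalling. The ISRE letters were present in 3.44% of 32851 promoters, or 3.99% of 27025 genes, and the GAS letters in 8.3% of promoters, or 9.55% of genes. Of the 9 cluster members with a promoter in the table, 6 held the ISRE letters, against 3 of 42 other members. The 6 were Trim12a, Trim12c, Trim30a, Trim30d and Trim34a, all of which rose, and Trim5, which did not pass. Trim30b, Trim30c and Trim34b held no ISRE letters in these windows, and Trim30c held the GAS letters. Below, the strand of the gene is printed, with the matched letters in capitals (the ISRE in its reverse complement, with 2 copies of TTTC), for Trim5 at chr7:104288121-104288180 (minus strand), Trim12a at chr7:104315466-104315510 (minus), Trim12c at chr7:104353350-104353403 (minus), Trim30a at chr7:104465195-104465254 (minus), Trim30d at chr7:104507856-104507915 (minus), Trim34a at chr7:104244442-104244486 (plus) and Trim30c, with the GAS letters, at chr7:104400807-104400865 (minus), all GRCm38.p6.
Trim5: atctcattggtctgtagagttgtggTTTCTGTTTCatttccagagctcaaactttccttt
Trim12a: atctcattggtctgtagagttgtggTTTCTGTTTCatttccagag
Trim12c: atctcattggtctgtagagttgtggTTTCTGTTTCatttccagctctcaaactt
Trim30a: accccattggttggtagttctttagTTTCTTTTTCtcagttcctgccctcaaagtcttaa
Trim30d: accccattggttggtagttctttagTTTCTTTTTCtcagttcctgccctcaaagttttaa
Trim34a: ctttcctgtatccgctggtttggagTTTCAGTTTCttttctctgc
Trim30c: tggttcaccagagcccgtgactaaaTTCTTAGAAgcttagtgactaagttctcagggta

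The windows fall into families. Trim30a and Trim30d were identical at 59 of 60 bases. Trim5 and Trim12a were identical at all 45 bases that both windows show, and Trim5 matched Trim12c at 52 of 54. Trim5 carried the same letters as Trim12a and Trim12c. Its groups overlapped at its 1 probe. The groups did not overlap at the brightest probes of Trim12a and Trim12c, but they did at another Trim12c probe. Whether the letters go with the levels was not tested. Outside the cluster, the ISRE letters were in promoters of Trim2, Trim21 and Trim26, none of which passed the test, and in neither of the 2 called other members with a promoter in the table. Trim21 and Trim26 each held 2 overlapping matches, in windows at chr7:102565453-102565494 (minus strand) and chr17:36836961-36837026 (plus strand), GRCm38.p6, shown for these overlapping matches. The match of Trim2, whose Lck-off levels were lower without overlap, began 29 bases after the start of 1 of its promoters.
Trim21: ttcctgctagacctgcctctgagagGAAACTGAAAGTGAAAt
Trim26: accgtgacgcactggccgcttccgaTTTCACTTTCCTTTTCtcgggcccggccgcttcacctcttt
A match is a run of letters, not a measured binding site, and binding was not measured in these samples.

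Where a member had several probes, they did not always give the same answer. Over single probes 7.33% of 25576 passed, with p adjusted over probes. Trim12c had a log2 difference of 0.71 at base 427 of its transcript (limma adjusted p = 0.0109), 0.34 at base 1741 (0.0915) and -0.16 at base 2393 (0.693). Levels at the last of these were 1.29, 1.65 and 1.88 in WT against 1.75, 1.34, 1.28 and 1.42 in Lck-off, so the groups overlapped there, and the mean of the Trim12c probes differed by 0.30 and did not pass (limma adjusted p = 0.114). Trim34a passed at both of its probes, by 0.71 at base 228 and 0.84 at base 2342. Trim12a passed at base 1377 (0.58) but not at base 739, where the levels were 2.39, 2.67 and 2.47 in WT against 2.85, 2.75, 3.14 and 3.09 in Lck-off (0.44, limma adjusted p = 0.0876). There the groups did not overlap, and the difference had the same sign. Trim5, Trim30a, Trim30b, Trim30c, Trim30d and Trim34b each rest on 1 probe. No transcript listed for the Trim5 or Trim30c probe matched a gene in RefSeq's list, so these probes are named by the array's annotation alone.

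**Figure D3:**
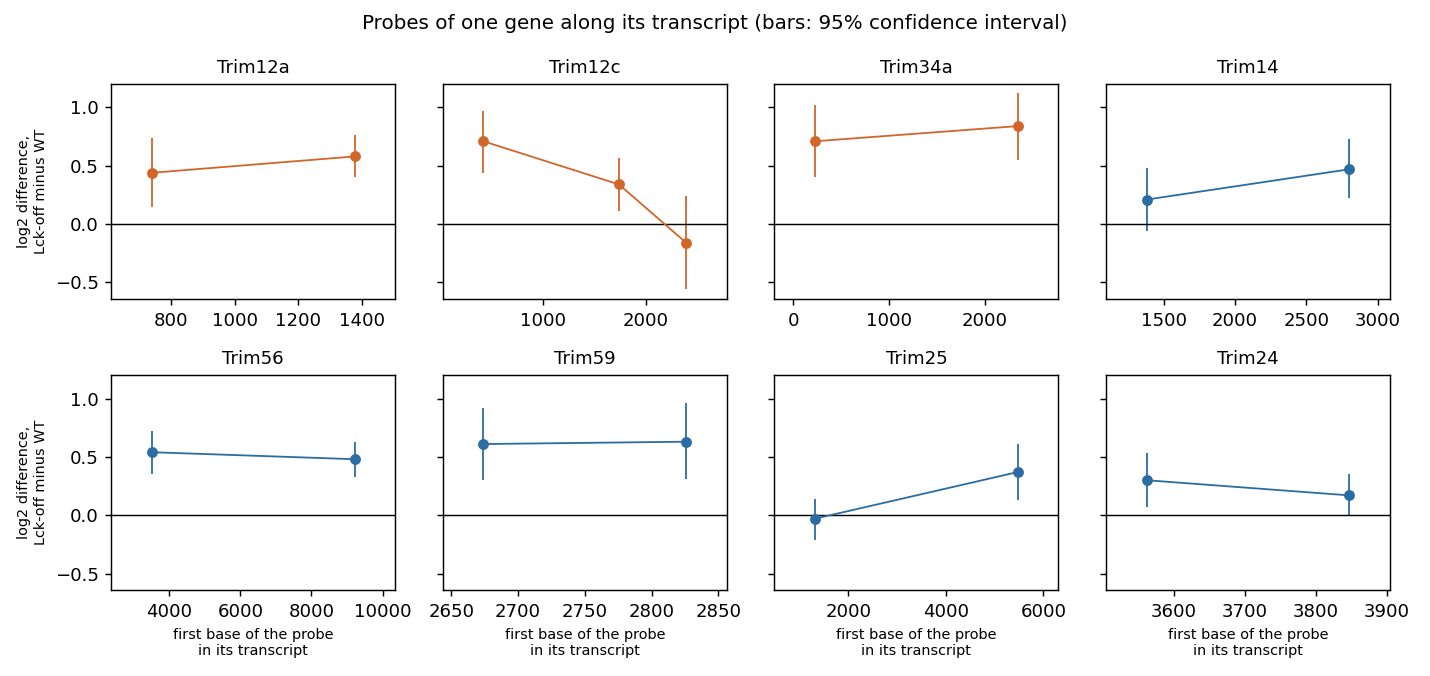
Log2 difference (Lck-off minus WT, y axis) of each measured probe against the position of its first base in the transcript (x axis, bases) for 8 TRIM genes, with 95% confidence intervals; orange marks cluster genes. The probes of Trim34a, Trim56 and Trim59 lie close together, those of Trim12c go from 0.71 to -0.16, and those of Trim25 lie at -0.03 and 0.37.

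The cluster probes span 285.4 kb of chromosome 7, from 111396137 to 111681534 (mm9). Within this span and 1 Mb to either side the array has 119 other gene names, of which 17 were measured. Of these 17, 3 rose and 0 fell, and all 3 lay inside the span, where 4 were measured. None of the 13 outside passed in limma. Fam160a2, the 1 at an unadjusted p under 0.05, was higher without overlap (0.33, limma adjusted p = 0.0601). Apart from Fam160a2 and the unnamed probe A_55_P2181444 (mean WT levels 3.42 and 4.65), the genes outside were dim, with mean WT levels of -0.74 or less. The flanks thus held few genes in which a rise could be seen. Trim6, a TRIM gene just outside the span, was not well above background at any probe. Of the rises inside, 1 was LOC100046632, described on the array as a Trim30b transcript (chr7:111511368-111511427, minus strand, mm9), with levels of 0.41, 0.53 and 0.21 in WT against 1.28, 1.62, 1.52 and 1.62 in Lck-off. It rose without overlap by 1.13 (2.19-fold, limma adjusted p = 0.00180), while the probe named Trim30b did not pass.

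The other 2 rises inside the span were probes for noncoding RNA on the minus strand, the strand of Trim30c. One of them, at 2.45, has the same 60 bases as the Trim30c probe and so is the same measurement made by another spot. The other (chr7:111530612-111530671, mm9) lies at the same place on the same strand, where it overlaps the Trim30c probe by 27 bases, and its levels were 2.39, 2.49 and 2.58 in WT against 3.35, 3.68, 3.65 and 3.62 in Lck-off, a log2 difference of 1.09 where Trim30c differed by 2.53. Further probes of the same noncoding names on the minus strand differed by 2.49 and 2.33. The one at 2.33 (chr7:111530859-111530918, mm9) shares a run of 29 bases with the Trim30d probe. Plus-strand probes at this place, starting at 111530668 and 111530728, were not kept, with 0 and 1 arrays above background. Plus-strand probes further along were kept: the one starting at 111536045 rose by 0.51 without overlap (limma adjusted p = 0.0198 over probes), and those starting at 111542778 and 111542838 differed by -0.20 and -0.12 and did not pass. The Trim30d probe and the noncoding probe at 2.33, which lie at different places, are printed to show the run they share, in capitals.
Trim30d probe: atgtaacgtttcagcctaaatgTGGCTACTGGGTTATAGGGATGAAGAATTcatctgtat
noncoding probe at 2.33: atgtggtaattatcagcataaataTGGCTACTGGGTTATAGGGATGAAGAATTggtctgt
How much of the RNA of one Trim30 copy bound to the probe of another was not tested, so the sizes for single Trim30 copies are uncertain.

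**Figure D4:**
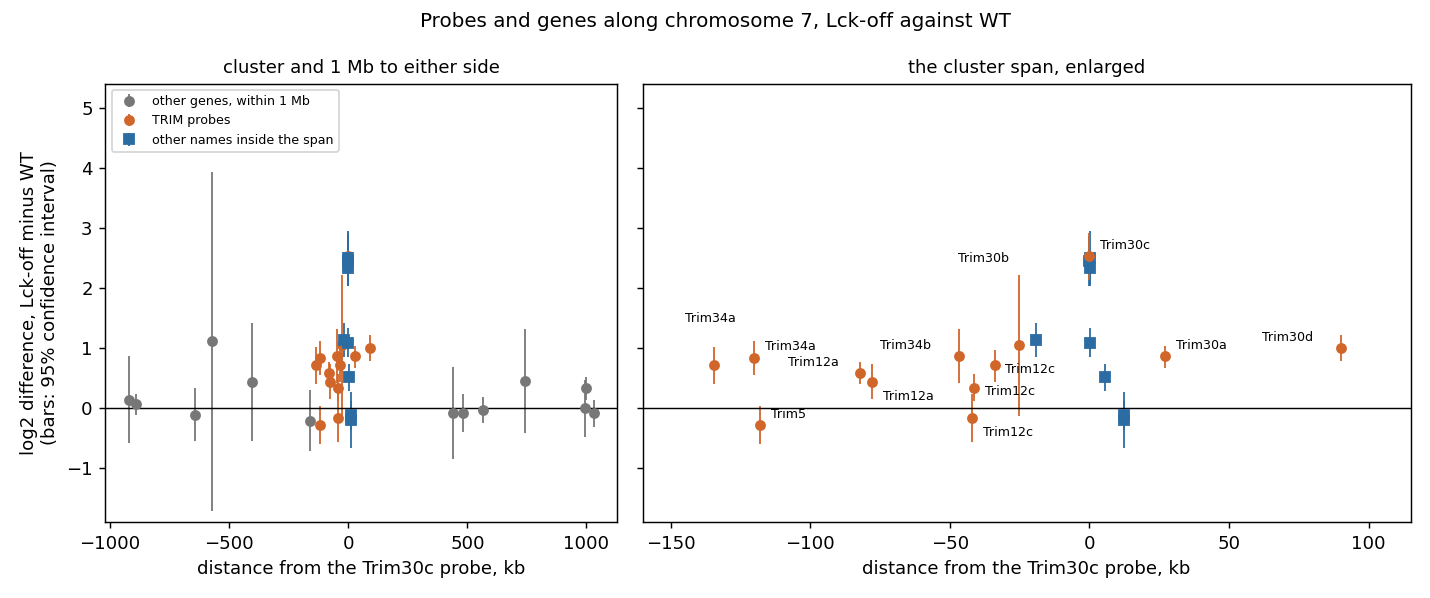
Log2 difference (Lck-off minus WT, y axis) against distance from the Trim30c probe (x axis, kb), for measured probes and genes on chromosome 7; bars are 95% confidence intervals, orange marks TRIM probes, blue squares other names inside the cluster span, and grey the 13 measured genes outside it. All genes that passed lie inside the 285.4 kb span, where Trim5 and 1 Trim12c probe are the TRIM points below 0.

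Among 17 members grouped for antiviral and innate signalling, 14 were measured, 2 rose and 0 fell, with a median log2 difference of 0.07. Trim56, a ligase that promotes STING and Toll-like receptor 3 signalling, had levels of 5.53, 5.39 and 5.59 in WT against 5.99, 6.03, 6.07 and 6.06 in Lck-off. Its groups were well apart, the rise was 0.54 ± 0.07 SE (1.45-fold, limma adjusted p = 0.00531; 0.0961 with arrays scaled to their median), and its other probe differed by 0.48. Trim14, an adaptor of the mitochondrial antiviral protein MAVS, gave 2.47, 2.78 and 2.53 in WT against 3.22, 3.09, 3.02 and 2.94 in Lck-off. The groups did not overlap, and it rose by 0.47 ± 0.11 SE (limma adjusted p = 0.0367). It missed the threshold without any 1 array other than WT replicate 2 (differences of 0.41 to 0.52, limma adjusted p from 0.0573 to 0.120), and a dimmer Trim14 probe differed by 0.21 (0.365).

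A further 3 antiviral members were higher on every Lck-off array without passing. With the 2 called, the groups did not overlap in 5 of the 14 measured, where 21.8% of all genes showed no overlap in either direction. Trim25, which activates RIG-I, had levels of 5.64, 6.01 and 5.86 in WT against 6.27, 6.12, 6.25 and 6.18 in Lck-off (0.37, limma adjusted p = 0.0717). Trim21, the cytosolic antibody receptor, gave 3.34, 3.75 and 3.45 in WT against 3.83, 3.85, 3.94 and 3.89 in Lck-off (0.37, 0.0884). Trim26 gave 4.39, 4.57 and 4.39 in WT against 4.73, 4.70, 4.71 and 4.68 in Lck-off (0.26, 0.0809). In all 3, WT replicate 2 was the WT array closest to the Lck-off arrays, and without it Trim21 passed (0.48, limma adjusted p = 0.0285). The other Trim25 probe, at base 1315, had overlapping groups and a difference of -0.03. Trim13, a ligase of the endoplasmic reticulum, had levels of 0.09, 0.67 and 0.57 in WT against 0.20, -0.04, 0.20 and 0.02 in Lck-off. They overlapped at WT replicate 1, and without it the difference of -0.35 (limma adjusted p = 0.231) became -0.53 (0.0415). The 2 probes of Trim39 gave 0.07 and -0.05, and those of Trim65 0.03 and -0.12, none past the test. Trim31, Trim38 and Trim40 of this group were not measured.

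None of the 3 measured members of the TIF1 group, which act as cofactors of transcription, passed in limma (2 at an unadjusted p under 0.05, 1 in each direction). Trim28 (KAP1), the corepressor recruited by KRAB zinc finger proteins, had levels of 4.44, 4.48 and 4.76 in WT against 4.63, 4.73, 4.41 and 4.45 in Lck-off. The groups overlapped, and the 95% confidence interval of its difference ran from -0.28 to 0.27. Trim33, a partner of Smad proteins, gave 0.96, 1.01 and 1.01 in WT against 0.84, 0.47, 0.72 and 0.57 in Lck-off. All Lck-off arrays were lower, with a difference of -0.34 (limma adjusted p = 0.0906), and it passed without Lck-off replicate 1 (-0.41, 0.0473). Trim24 differed by 0.17 at its brightest probe and 0.30 at the other (limma adjusted p = 0.223 for the gene), with no overlap at either probe. Trim66 was not measured.

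In the neuronal and NHL group 5 of 7 members were measured and none passed in limma (2 lower at an unadjusted p under 0.05), with a median of 0.18. Trim2, a ligase of neurofilament in neurons, had levels of -0.93, -0.80 and -0.64 in WT against -1.27, -1.20, -0.99 and -1.30 in Lck-off. Each Lck-off array was below each WT array, and the difference of -0.40 did not pass (limma adjusted p = 0.0696). Trim36, a microtubule-associated ligase, gave -2.69, -2.92 and -2.76 in WT against -2.94, -3.39, -3.30 and -3.74 in Lck-off. Its Lck-off arrays were also lower without overlap, with a difference of -0.55 (limma adjusted p = 0.123), and passed without Lck-off replicate 1 (-0.69, 0.0349).

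Of 23 remaining members, 12 were measured and 1 rose, with a median of 0.11. Trim59, a TRIM protein with a membrane-spanning segment, had levels of 2.72, 3.02 and 3.16 in WT against 3.67, 3.48, 3.80 and 3.46 in Lck-off. The groups did not overlap, and its 2 probes rose by 0.63 and 0.61, the first by 1.55-fold with 0.14 SE (limma adjusted p = 0.0308 for the gene). It missed the threshold without any 1 array other than WT replicate 3 (differences of 0.51 to 0.68, limma adjusted p from 0.0508 to 0.0863). Trim43c, of a group of near-identical mouse genes, gave 0.27, 0.16 and 0.31 in WT against 0.41, 0.40, 0.44 and 0.49 in Lck-off, and did not pass (0.19, limma adjusted p = 0.164). The 2 Trim47 probes gave 0.10 and -0.05. The 4 muscle members (Trim54, Trim55, Trim63 and Trim72) and the 2 erythroid members (Trim10 and Trim58) were not measured, nor were Trim6, Trim15, Trim16, Trim17, Trim29, Trim42, Trim50, Trim52, Trim60, Trim61, Trim67, Trim71 and Trim75.

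TRIM proteins that carry other gene names were counted apart, as the name rule leaves them out. Of 5, 3 were measured, and Pml and Mid1 passed the test. Pml, which builds the nuclear bodies of that name, had levels of 3.01, 3.36 and 3.26 in WT against 4.08, 4.13, 3.98 and 4.07 in Lck-off. The groups were well apart, with a rise of 0.86 ± 0.10 SE (limma adjusted p = 0.00255). Mid1, a microtubule-bound ligase, was well above background on 1 WT array and all 4 Lck-off arrays, with levels of -4.27, -3.93 and -2.98 in WT against -2.64, -0.89, -1.38 and -1.09 in Lck-off. It was kept through its Lck-off arrays and passed as higher in Lck-off (limma adjusted p = 0.0310), but no size is given, since most WT arrays were at background, and Lck-off replicate 1 was close to WT replicate 3. Cmya5 differed by 0.29 and did not pass, and Mid2 and Mefv were not measured.

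Partners of the antiviral TRIM proteins in RNA sensing and interferon induction were looked at next. Of the 25 with a name on the array, all were measured, 7 rose and 0 fell (9 higher and 0 lower at an unadjusted limma p under 0.05), with a median of 0.08. The RNA sensor Ddx58 (RIG-I), the target of Trim25, had levels of 4.78, 5.12 and 4.91 in WT against 5.61, 5.59, 5.58 and 5.58 in Lck-off, a rise of 0.65 (limma adjusted p = 0.00517). The sensors Ifih1 and Dhx58 rose by 1.75 and 1.63, the transcription factor Irf7 by 1.88, the ubiquitin-like modifier Isg15 by 1.97, and its conjugating enzymes Ube2l6 and Uba7 by 1.38 and 0.68. These 7 are sensors, Irf7 and the Isg15 pathway. The adaptor Mavs (0.01), the kinase Tbk1 (0.16) and the transcription factor Irf3 (0.08) did not pass, and Mb21d1 is not a name on the array.

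Of the interferon receptor and ISGF3 genes, Stat2 had levels of 3.04, 3.51 and 3.16 in WT against 4.19, 4.11, 4.09 and 4.39 in Lck-off. Its groups did not overlap, and the rise was 0.96 (limma adjusted p = 0.00531). Its ISGF3 partner Irf9 rose by 0.67 and the receptor chain Ifngr1 by 0.35. The receptor chains Ifnar1 (0.08), Ifnar2 (0.20) and Ifngr2 (0.24), the kinases Jak1 (-0.07) and Tyk2 (-0.13) and the transcription factor Irf1 (0.18) did not pass. Among 12 silencing partners of Trim28, the deacetylase Hdac1 rose by 0.38 (limma adjusted p = 0.0146) and the heterochromatin protein Cbx3 fell by 0.33 (0.0344), with a median of 0.01 over the 12.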

How the data were processed

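Total RNA of 3 WT and 4 Lck-off samples was measured on single-colour Agilent arrays of design 028005. Feature Extraction 10.7.3.1 gave the deposited intensity columns, per the file headers: processed intensities were background subtracted and detrended within an array, with no scaling between arrays, and mean spot and local background intensities were left uncorrected. Flags and spot types come from the same software and probe positions are on mm9, per the file headers. The deposited value table is in log2, judged from its values (column medians 6.38 to 6.39, correlation with log2 intensity 0.953 to 0.963), so its direction is that of the intensities; its centring and steps stay unknown, and limma stands in the submitters' processing notes with no version.

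Here, log2 processed intensity minus the array's 75th percentile over non-control spots was used, with non-uniform spots set to missing and spots of a probe averaged. A probe was kept (25576 of 55681) if at least 3 of the 7 arrays had it well above background, and the brightest kept probe stood for a gene (18230 genes). Groups were compared with limma 3.58.1 (run in R 4.3.3 with data.table, version 1.17.8), two-sided, with Benjamini-Hochberg adjustment over all genes and an adjusted p under 0.05; the steps were tested on simulated data. Log2 differences had a median SE of 0.11, a precision set by the number of arrays. Rows of the slide were tested as a block and alone. Replicate numbers were not used as pairs in the main fit, and whether they pair the samples is not known. All 67 names matched a current symbol in RefSeq's list of genes (GRCm38.p6), used for names and listed transcripts alone. A matched name does not check the probe. The transcripts listed for the only probes of Trim5 and Trim30c matched no gene there. Whether a probe lies in an exon or UTR was not analysed here.

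Named with values were all measured cluster members, other called members, the 8 others of smallest p, the 3 of highest level, members whose probes disagreed, and Trim6, Trim21, Trim25 and Trim28. The members, lists and rule were chosen with earlier results of these data known. Gene lists were described by counts and medians, not tested, and 2 list members and the results that need them are not reported here. Alternatives were normexp background (offset 50), other scalings and filters, the deposited table, mean and single probes, trended moderation, weights per array, blocks, and leaving out each array.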

Additional observations from a re-analysis of the deposited data

Results flagged for a closer look

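Within the Lck-off group, 2 of the 43 measured TRIM genes had 1 array far from the other 3 (the gap to its neighbour, over the range of the 4, exceeded Dixon's critical value at 95%). Chance flags about 1 in 20 groups. Trim30c in Lck-off replicate 4 was at 1.14, with the others at 0.91 to 0.94 (ratio 0.853). Trim7 in Lck-off replicate 3 was at -2.44, with the lowest of the others at -2.03 (ratio 0.924), and Trim7 did not pass the test between the groups.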

How the results depend on the processing

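Trim30a, Trim30c and Trim30d passed under all 21 alternatives, and no TRIM result changed direction with a call. Over the same alternatives 0 cluster genes were called lower. With the median in place of the 75th percentile, 918 genes passed in place of 1527, 6 TRIM genes rose in place of 10, and 0 members outside the cluster rose; Trim12a (limma adjusted p = 0.0555) and Trim56 (0.0961) then missed. With no filter on dim probes 717 genes passed and 1 member outside the cluster rose. Normexp background gave 5 rises outside the cluster and a cluster median of 0.68 in place of 0.86, and trended and robust moderation gave 6 rises outside. Scaling over probes detected on all arrays, a filter on all 7 arrays and the slide row as a block each gave 1 lower call outside the cluster, Trim2 (limma adjusted p 0.0463, 0.0493 and 0.0313). With the row block Trim34b missed (0.0585).

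Leaving out 1 array gave 960 to 1406 genes called, 7 to 11 TRIM rises, 6 to 8 in the cluster and 1 to 3 outside it, 0 to 2 TRIM falls, all outside the cluster, a cluster median of 0.77 to 0.94 and a median outside it of 0.07 to 0.12. The count over all genes fell by more than 1.5 times without WT replicate 2 (960), WT replicate 3 (984), Lck-off replicate 3 (964) or Lck-off replicate 4 (968).

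Whether the replicate numbers pair the samples is not known. Deviations of same-numbered arrays correlated at 0.11, 0.05 and -0.01, and 2 of 3 WT and 1 of 3 Lck-off arrays correlated best with their own number. Xist was low on replicate 1 of both groups. So few arrays cannot decide the question, and the main fit used no pairing. With the number as a replicate block, 374 genes passed, 3 TRIM genes rose, all 3 of them in the cluster (Trim30a, Trim30c and Trim30d), and 0 outside it. The number of arrays limits the precision, and dim probes such as Trim30b, near background in WT, give only wide intervals.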
